A study of Rattus norvegicus with 2 samples.

Results

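The cytosolic ribosomal protein genes encode the protein subunits of the ribosomes that translate mRNA in the cytoplasm. They were taken from the array by symbol, as every gene whose only symbol starts with Rpl or Rps followed by a digit or with Rplp, or is Rpsa, leaving out the S6 kinases (Rps6k). That gave 310 genes on 367 probe sets, of 22093 genes and 68842 probe sets in all. Of a list of 77 core genes, 1 for each canonical protein, 70 were analysed here, 44 of 46 in the large subunit and 26 of 31 in the small subunit. A further 237 genes were copies of a core gene, 114 with symbols ending in -ps and a number and 123 of the l type, with symbols ending in l and a number or, for Rpl3l and Rps27l, in l. The other 3 were Rps19bp1, which encodes a protein that binds ribosomal protein S19 and is not itself a ribosomal protein, Rps4y2 and Rpl36Al2.

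RNA came from whole kidneys of male Dahl salt-sensitive rats, a strain that becomes hypertensive on a high-salt diet, obtained at 3 weeks of age. DSH+2.5%SF rats ate chow with 8% NaCl for 4 weeks and were given sucroferric oxyhydroxide, an iron-based binder that holds phosphate back in the gut, at 25 mg per g of chow once 1 week of that diet had passed. DSH rats ate the same high-salt chow without the binder, and the chow of both groups held 0.3% phosphorus and 0.5% calcium. The sample labels name the binder and not the salt, so the diet is taken from the study's methods. Each group was a pool of RNA from 3 rats on 1 array, so a difference between the pools cannot be told apart from differences among the rats pooled, and no test is possible. Expression was measured as intensity, with a log2 ratio of DSH+2.5%SF over DSH. A gene was called lower at a Z-score of at most −2.0 with a ratio of at most 0.66, and higher at a Z-score of at least 2.0 with a ratio of at least 1.5, where the Z-score is the log2 ratio minus its mean over all probe sets (0.03), divided by its SD (0.34). In whole tissue, fewer cells of a type and less RNA per cell cannot be told apart.

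Each ribosome joins a small (40S) subunit, which reads the mRNA, to a large (60S) subunit, which forms the peptide bonds. Cells make the proteins in matched amounts, assemble them on ribosomal RNA in the nucleolus and degrade those left unassembled. The mRNAs of these genes typically start with a run of pyrimidines, the TOP motif (5′-terminal oligopyrimidine), through which the mTOR pathway sets their translation. Mammalian genomes also carry many reverse-transcribed copies of them, most of which are not known to make a protein.

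Most core genes had a lower intensity in the DSH+2.5%SF pool than in the DSH pool, by a small amount. Of the 70, 67 had a log2 ratio below 0, 2 above 0 and 1 equal to 0, against 47.5% below 0 among all genes and 58.1% among genes with a mean log2 intensity of 7 or more. Their median log2 ratio was −0.28, a 1.22-fold lower intensity, against a median of 0 over all genes and −0.06 over those brighter ones. The log2 ratios ran from −0.87 to 0.17. At least 1.1-fold lower were 52 core genes, at least 1.2-fold 39, at least 1.3-fold 20 and at least 1.5-fold 6. Shares at these folds were not counted over all genes. The lower quartile of the log2 ratio was −0.40 for core genes and −0.16 for all genes. For genes with a mean log2 intensity of 7 or more it was −0.24. Of the 70, 4 were called lower and none higher, against 1.36% called lower and 1.09% called higher among all genes. Among genes with a mean log2 intensity of 7 or more, 2.44% were called lower. With a local Z-score, taken among the 1000 probe sets closest in brightness, only Rps16 of the 4 stayed below the limit, against 0.883% of all genes. Members of a protein complex are not replicates of the diet, and these shares describe 2 pools.

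**Figure D1:**
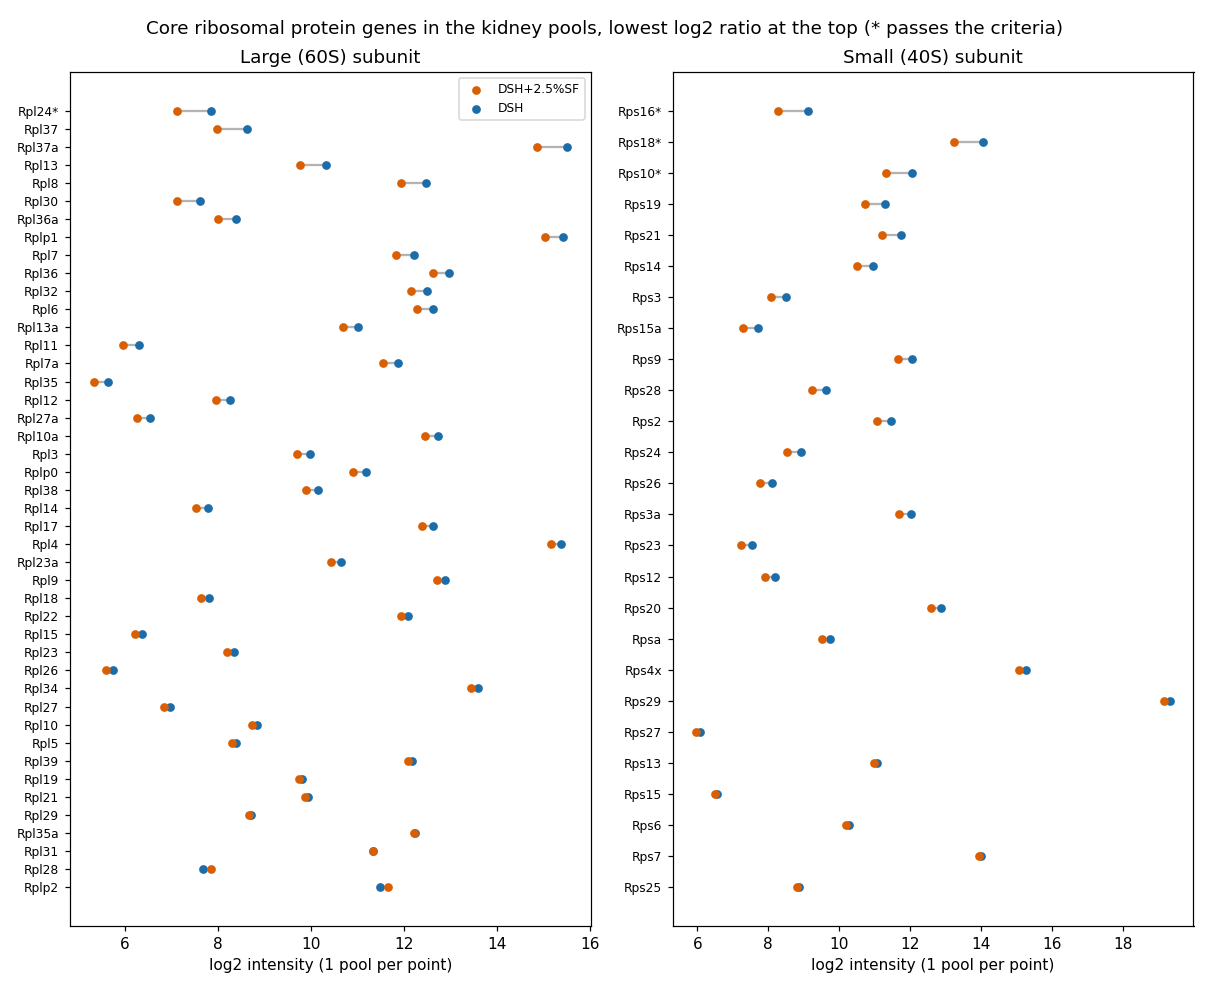
Log2 intensity (horizontal axis) of each core gene in the DSH+2.5%SF pool (orange) and the DSH pool (blue), 1 point a pool, for the large subunit (left) and the small subunit (right), ordered by log2 ratio with the lowest at the top and with an asterisk on genes that passed the criteria. The orange point lies left of the blue one for 67 of 70 genes, and Rpl28 and Rplp2 at the bottom left show the opposite order.

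The 4 core genes called lower were Rps16, Rps18 and Rps10 of the small subunit and Rpl24 of the large subunit. Rps16, whose protein reaches toward the tRNA that holds the growing peptide, had an intensity of 307 in DSH+2.5%SF, against 561 in DSH, a log2 ratio of −0.87. Rps18, a protein of the small subunit head, had an intensity of 9609 in DSH+2.5%SF and 17085 in DSH, a log2 ratio of −0.83. Rps10, another protein of the head, had 2560 in DSH+2.5%SF and 4247 in DSH, a log2 ratio of −0.73. These span from a moderately bright to a very bright probe set. Rpl24, which helps to bridge the large subunit to the small one, was dimmer, with 139 in DSH+2.5%SF and 233 in DSH, a log2 ratio of −0.74. Just short of the limit were Rpl37, with 252 in DSH+2.5%SF against 394 in DSH and a Z-score of −1.99, and Rpl37a, with 29825 in DSH+2.5%SF against 46519 in DSH and a Z-score of −1.98. The Rpl37 probe set is named for chromosome 10, and RefSeq places the gene on chromosome 2. The Rpl37a probe set is named for chromosome 5, and the gene lies on chromosome 9. Another Rpl37a probe set, named for chromosome 11, had a log2 ratio of −0.07. Next in the order, Rps19 had a log2 ratio of −0.56 and Rpl13 one of −0.55.

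Rpl28, Rplp2 and Rpl31 were the 3 core genes not below 0. Rpl28, a large subunit protein found in animals and plants and not in baker's yeast, had an intensity of 233 in DSH+2.5%SF and 207 in DSH, a log2 ratio of 0.17. Rplp2, one of the acidic proteins of the stalk, had 3222 in DSH+2.5%SF and 2858 in DSH, also 0.17. Rpl31, a protein at the rim of the tunnel through which the new peptide leaves, was listed at 2583 in both pools. Exactly equal intensities were listed for 2018 of all 22093 genes. None of the 3 core genes passed the criteria. The next highest log2 ratio in the large subunit was that of Rpl35a (−0.03), and the highest in the small subunit were those of Rps25 (−0.06), Rps7 (−0.06), Rps6 (−0.07) and Rps15 (−0.08). The Rpl35a value came from a probe set with no chromosome in its name, and the one on the gene's chromosome, 11, had −0.32. The Rps7 value came from a probe set named for chromosome 15, and the one on the gene's chromosome, 6, had −0.29. Rps6, the substrate for which the S6 kinases are named, had 1177 in DSH+2.5%SF and 1237 in DSH.

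The first bases of these genes are shown because the TOP motif lies there. RefSeq (GRCr8) promoter sequences were read on the gene's strand from 10 bases before to 20 bases from the annotated start, the start included, at chr1:92770648-92770677 (plus strand) for Rps16, chr20:4933735-4933764 (plus) for Rps18, chr20:5700725-5700754 (minus) for Rps10, chr11:58128386-58128415 (minus) for Rpl24, chr9:49143101-49143130 (plus) for Rpl31, chr1:78083513-78083542 (minus) for Rpl28 and chr1:205975911-205975940 (plus) for Rplp2. These positions belong to the RefSeq table and not to the probe sets, whose build is not given. Capitals mark a run of at least 5 pyrimidines, C or T, on the gene's strand that begins within 5 bases of the annotated start.
Rps16: aaaatcggtcggggtggccccaagctttcc
Rps18: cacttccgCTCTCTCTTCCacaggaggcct
Rps10: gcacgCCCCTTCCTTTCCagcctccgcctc
Rpl24: tagggaggagaTTCTCTaccctataaggtg
Rpl31: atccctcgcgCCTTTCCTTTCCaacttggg
Rpl28: cccctagtgTCTTTCTTTCCgtctccggcc
Rplp2: cgccgccggacgccgccgaggtcgcacgcg
Such a run was found in 3 of the 4 core genes called lower and in 2 of the 3 that were not below 0.

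Over the core genes with a RefSeq promoter, 33 of 60 (55%) held such a run, 20 of 37 in the large subunit and 13 of 23 in the small subunit. The share was 23.6% among 106 copies with a promoter and 20.9% among all 33469 promoters. The median log2 ratio was −0.29 for the 33 core genes with the run and −0.28 for the 27 without it, and 31 and 26 of them were below 0. A run is a match of letters at an annotated start, which can lie some bases off the true one, and no run says only that none was found in this window.

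The small subunit had the lower median. All 26 core small subunit genes were below 0, with a median log2 ratio of −0.35, the middle 50% of genes between −0.42 and −0.16, and 3 called. Of the 44 core large subunit genes 41 were below 0, with a median of −0.26, the middle 50% between −0.34 and −0.13, and 1 called. Called lower were thus 11.5% of the small and 2.27% of the large subunit genes. Among all genes with a mean log2 intensity of 7 or more the share was 2.44%. On probe sets of the gene's own chromosome Rps18 and Rps10 lost their call, which left Rps16 and Rpl24. The medians differed by 0.09 on the log2 scale, less than the width of either middle range, so that the subunits overlapped over most of their spread. At least 1.3-fold lower were 11 of 26 small subunit genes and 9 of 44 large subunit genes, a share not counted over all genes. Among the copies the difference in medians was smaller, with −0.15 for 156 copies of large subunit genes and −0.18 for 81 copies of small subunit genes.

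Grouped by where their proteins sit, a grouping made after the values were seen, the core genes had a median below 0 in every group, from −0.42 at the mRNA entry to −0.14 at the tunnel rim. At the stalk, where the elongation factors bind, Rplp0, its base, had 1918 in DSH+2.5%SF and 2325 in DSH (log2 ratio −0.28). Rplp1 had 33536 in DSH+2.5%SF and 44065 in DSH, a log2 ratio of −0.39, on the other side of 0 from Rplp2, the protein it pairs with. Rpl12, next to the stalk, had a log2 ratio of −0.30. Rpl5 and Rpl11 carry 5S ribosomal RNA into the large subunit and, when unassembled, bind the p53 inhibitor Mdm2. Rpl5 had 319 in DSH+2.5%SF and 338 in DSH (−0.08), and Rpl11 had 62.9 in DSH+2.5%SF and 79.1 in DSH (−0.33). Along the peptide exit tunnel, Rpl4, Rpl17 and Rpl39, which line its wall, had log2 ratios between −0.25 and −0.08, and of 5 rim proteins 4 were below 0, down to −0.31. On the small subunit, Rps2 and Rps3 at the mRNA entry had −0.41 and −0.43, and Rps14, Rps26 and Rps28 at the mRNA exit lay between −0.47 and −0.35. Rpsa, which also serves as a laminin receptor, had 734 in DSH+2.5%SF and 856 in DSH (−0.22). In humans, loss of 1 copy of any of several of these genes causes Diamond-Blackfan anemia, and 8 of them, Rps7, Rps10, Rps19, Rps24, Rps26, Rpl5, Rpl11 and Rpl35a, a selection that does not cover every such gene, had a median of −0.34.

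The brightest and the dimmest core genes had log2 ratios below 0 alike. Rps29, a zinc-binding small subunit protein, was the brightest, with 588254 in DSH+2.5%SF and 655615 in DSH and a log2 ratio of −0.16. Rpl4 came next at 36504 in DSH+2.5%SF and 42560 in DSH (−0.22), with Rplp1 the third. The Rps29 probe set is named for chromosome 13, and the one on the gene's chromosome, 6, had 8836 in both pools. The dimmest was Rpl35, with 40.4 in DSH+2.5%SF and 50.0 in DSH (−0.31), followed by Rpl26 (48.6 in DSH+2.5%SF, 53.6 in DSH, −0.14) and Rps27 (62.9 in DSH+2.5%SF, 67.7 in DSH, −0.11). Intensities of different probe sets cannot be set against each other as amounts of RNA, because probe sets differ in affinity. Over the 70 core genes, mean log2 intensity and log2 ratio had a Pearson r of −0.06, a description of points from the same 2 arrays. By bands of mean log2 intensity, core medians were −0.15 in the band of 5 to 7, −0.32 in that of 7 to 9, −0.27 in that of 9 to 11, −0.32 in that of 11 to 13 and −0.20 from 13 up. The medians of all genes in the same bands were −0.05, −0.07, −0.04, −0.05 and −0.02.

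**Figure D2:**
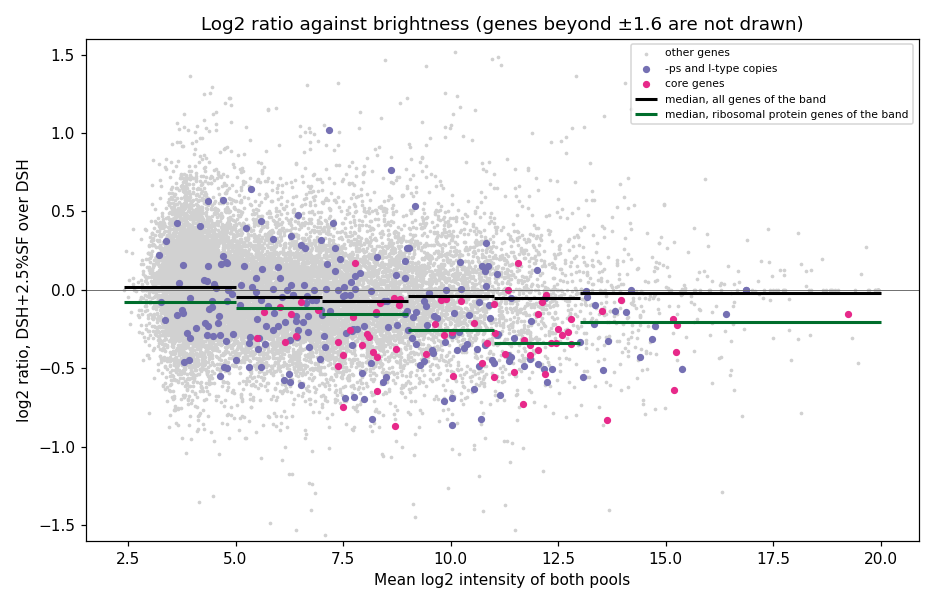
Log2 ratio of DSH+2.5%SF over DSH (vertical axis) against the mean log2 intensity of both pools (horizontal axis), 1 point a gene, for core genes (pink), copies (purple) and other genes (gray), with the medians of all genes (black) and of the ribosomal protein genes (green) in each brightness band. The green lines lie below the black ones in all 6 bands, by the widest gap between 11 and 13.

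Counted singly, the 119 probe sets of core genes held 109 below 0, 4 called lower and none called higher, against 42.3% below 0, 2.2% called lower and 2.79% called higher among all probe sets. Of the 70 core genes 28 had more than 1 probe set, 77 in all, of which 69 were below 0, 4 above and 4 equal, with a median log2 ratio of −0.27. In 23 of the 28 genes every probe set was below 0. The probe sets of 1 gene differed by 0.01 to 0.57 on the log2 scale, with a median range of 0.24, about as much as the core genes' median lay from 0. Rps16 had a log2 ratio of −0.37 on its second probe set, which was dim, with 15.5 in DSH+2.5%SF and 19.9 in DSH. With the average of a gene's probe sets in place of the brightest, Rps16 and Rps10 were no longer called. Rpl39 was below 0 on all 8, from −0.38 to −0.08, though 2 of these list identical intensities. Rplp2 was above 0 on both of its own, at 0.17 and 0.15. Rps29 had 2 probe sets below 0 and 2 with the same intensity in both pools. Rpl17 had −0.25 on the bright one and 0.20 on a dim one.

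**Figure D3:**
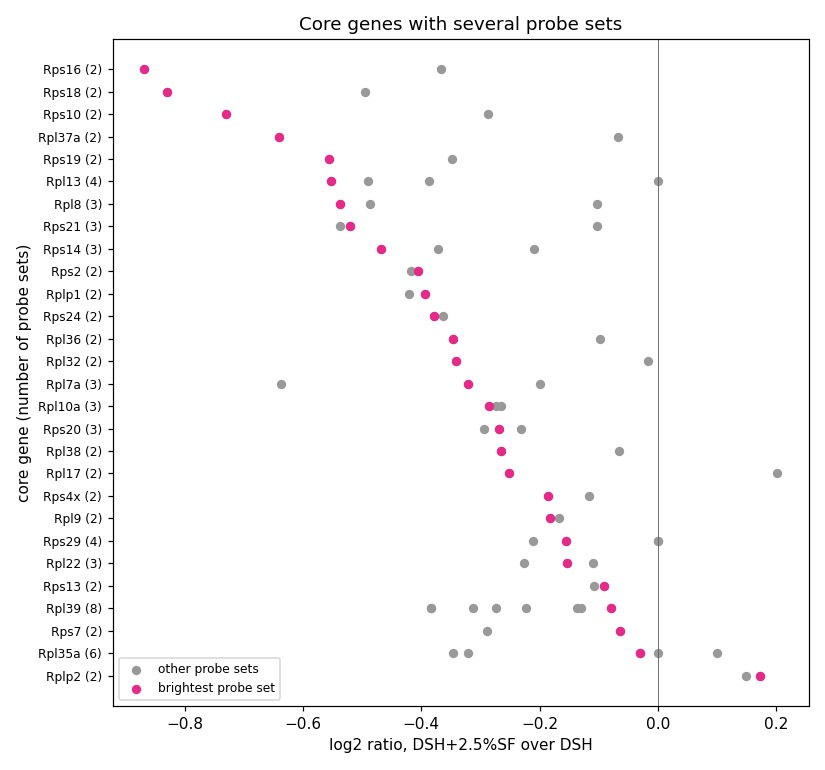
Log2 ratio of DSH+2.5%SF over DSH (horizontal axis) of every probe set of the 28 core genes with more than 1, the brightest in pink and the others in gray, with the number of probe sets in parentheses. Points left of 0 are lower in DSH+2.5%SF, which holds for 69 of 77 probe sets, and the 4 right of 0 belong to Rplp2 (2), Rpl17 and Rpl35a.

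The brightest probe set of a core gene did not always lie where the gene does. The chromosome in the probe set's name was the RefSeq chromosome of the gene for 47 of the 70, another one for 11, and 12 names held none. The median log2 ratio was −0.28 for the 47, −0.41 for the 11 and −0.27 for the 12. For Rps18 the probe set named for chromosome 10 gave the call, and the one on the gene's chromosome, 20, had 2650 in DSH+2.5%SF and 3733 in DSH, a log2 ratio of −0.49 that did not pass. For Rps10 the called probe set had no chromosome in its name, and the one on chromosome 20 had 567 in DSH+2.5%SF and 692 in DSH, a log2 ratio of −0.29 that did not pass. With probe sets on the gene's own chromosome alone, an alternative chosen after the data were seen, 64 of 68 core genes were below 0 and 2 were called lower, Rps16 and Rpl24. Copies can be close to their parents in sequence, so that a probe set may read the mRNA of the parent, and whether it did was not tested. How close each copy is was not measured, and the copies include paralogs with roles of their own, such as Rpl7l1 and Rpl3l.

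Copies had a median nearer to 0 than the core genes. Of 237 copies 164 were below 0, 66 above 0 and 7 equal, with a median log2 ratio of −0.15. Those ending in -ps had a median of −0.17 (114 genes) and the l-type ones −0.13 (123 genes). Copies that RefSeq annotates as protein coding had a median of −0.15 (130 genes) and those annotated as pseudogenes −0.16 (105 genes). Called lower were 9 of the 237 copies (3.80%) and called higher 2 of them, against 1.36% lower and 1.09% higher among all genes. The 310 genes together held 13 lower and 2 higher calls. With the local Z-score 1 copy was called lower (Rps23l1) and 1 higher (Rps12l3). With a loess trend on brightness subtracted 5 were called lower, Rps16l1, Rpl27l3, Rpl37-ps1 and Rpl18al1 no longer among them. All 11 called copies had a mean log2 intensity of at least 7, a range in which 9 of 130 copies (6.92%) and 2.44% of all genes were called lower.

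The lowest copies belonged mostly to small subunit genes. Rps19l3 had an intensity of 775 in DSH+2.5%SF and 1406 in DSH, a log2 ratio of −0.86. Rps23l1 had 218 in DSH+2.5%SF and 386 in DSH (−0.82), and Rps16-ps6 had 1260 in DSH+2.5%SF and 2228 in DSH (−0.82). Rps23-ps8 and Rps16l1, of the small subunit, and Rpl27l3 and Rpl37-ps1, of the large subunit, were among the others called lower, at log2 ratios between −0.71 and −0.67. All 3 copies of Rps16 were below 0, at −0.82, −0.69 and −0.44, so that the lowest core gene also had low copies. The copies called higher were Rps12l3, with 205 in DSH+2.5%SF and 102 in DSH (1.02), and Rps23-ps9, with 514 in DSH+2.5%SF and 302 in DSH (0.77). Their parents were below 0, with Rps12 at −0.28 and Rps23 at −0.33, and the copies of Rps23 went both ways. Among the next highest, Rpl34l1 and Rps15al2 had log2 ratios of 0.64 and 0.57 at intensities of 51.3 or less and did not pass.

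Set against the measured parent, the 225 copies with one had a higher log2 ratio in 150 cases, a lower one in 71 and the same in 4. The median of copy minus parent was 0.14, with the middle 50% between −0.05 and 0.33. The gap varied with the brightness of the copy. For 77 copies with a mean log2 intensity of 9 or more the median difference was 0.05, with a copy median of −0.25, and for 148 dimmer copies it was 0.18, with a copy median of −0.10. Between 11 and 13 the order was the other way round, with a median of −0.43 for 19 copies and −0.32 for 23 core genes. Over 62 parents, the parent's log2 ratio and the median of its copies had a Pearson r of 0.48, a description of probe sets on the same 2 arrays that may share transcripts. Rps2, with the most copies (11), had a log2 ratio of −0.41, against a median of −0.04 over its copies. Rpl38, with 8 copies, had −0.27 against 0.01, and Rpl31, with 8, had 0 against −0.02.

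**Figure D4:**
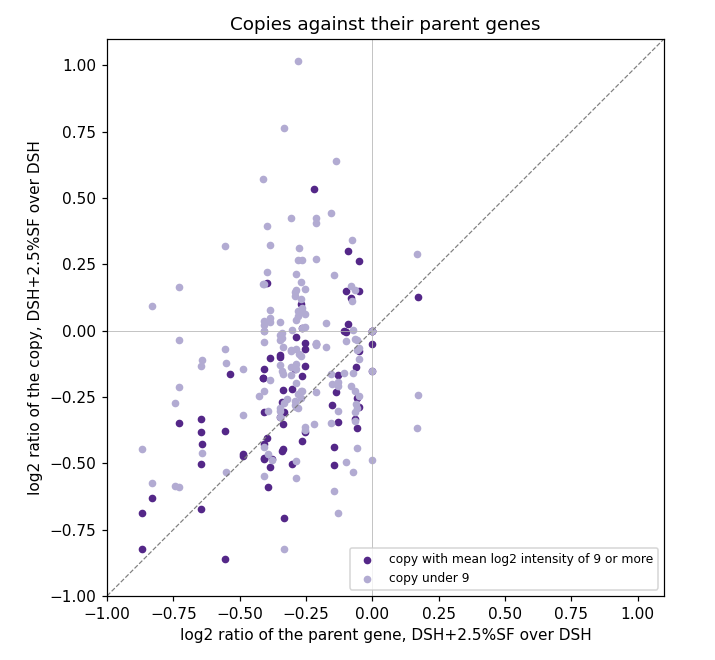
Log2 ratio of DSH+2.5%SF over DSH of 225 copies (vertical axis) against that of the parent gene (horizontal axis), with copies of a mean log2 intensity of 9 or more in dark and dimmer ones in light purple, and a dashed line where both are equal. Most points lie left of 0 and 150 lie above the dashed line, the dimmer copies farther from it.

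A few paralogs, most of them counted above among the l-type copies, make proteins with a known role. Rpl22l1, which can stand in for Rpl22, had 97.8 in DSH+2.5%SF and 110 in DSH, a log2 ratio of −0.16, against −0.15 for Rpl22. Rps27l, a p53-responsive paralog, had 122 in DSH+2.5%SF and 136 in DSH (−0.16), against −0.11 for Rps27. Rpl7l1, which acts in ribosome assembly, had 209 in DSH+2.5%SF and 202 in DSH (0.05), against −0.38 for Rpl7. Rpl3l, the form of skeletal and heart muscle, was dim, with 12.98 in DSH+2.5%SF and 12.61 in DSH (0.04), against −0.29 for Rpl3, and Rps4y2 was also dim, with 22.3 in DSH+2.5%SF and 22.1 in DSH. Of the remaining genes, Rps19bp1 had 76.1 in DSH+2.5%SF and 65.0 in DSH (0.23), and Rpl36Al2 had a log2 ratio of −0.47. Of 4 listed genes of ribosomal proteins whose symbols fall outside the selection, 2 were analysed here, both below 0. Rack1, a scaffold on the small subunit, had 1321 in DSH+2.5%SF and 1909 in DSH (−0.53), and Fau, whose product is split into ubiquitin-like protein and ribosomal protein S30, had 1269 in DSH+2.5%SF and 1616 in DSH (−0.35).

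The other genes of the translation apparatus lay nearer to 0 than the core genes. Of 34 initiation factor genes 23 were below 0, with a median log2 ratio of −0.10, and Eif3b, a scaffold subunit of the factor that loads the small subunit onto mRNA, was the 1 of 34 called lower, with 476 in DSH+2.5%SF and 811 in DSH, a share near the 2.44% of brighter genes and a call lost with the local Z-score (−1.86). Of 12 elongation and release factor genes 6 were below 0, with a median of −0.03. Of 44 ribosome biogenesis genes 29 were below 0, with a median of −0.12 and a range from −0.48 (Nhp2) to 0.37 (Gtpbp4). Of 18 further genes with TOP mRNAs, Rack1, Fau and some translation factors among them, 13 were below 0, with a median of −0.19. Of 18 genes listed for the mTOR and S6 kinase pathway 11 were below 0, with a median of −0.09. That list also holds the transcription factors Myc (0.24), Max (−0.16), Yy1 (0.10) and Gabpa (0.12), which are not members of the pathway. None of the last 4 lists had a called gene. Of 8 p53 targets, Sesn2, an inhibitor of mTOR complex 1, was called higher, with 864 in DSH+2.5%SF and 480 in DSH. Pmaip1 was called lower at a dim level, 10.1 in DSH+2.5%SF and 20.7 in DSH. Among all genes 1.09% were called higher and 1.36% lower.

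Against 2 other large complexes, the core genes had the lower median. Mitochondrial ribosomal protein genes (74 genes), which serve the separate ribosomes of mitochondria, had a median log2 ratio of −0.09 with 46 below 0, and Mrpl41 and Mrpl53 were called lower, Mrpl53 not with the local Z-score (−1.51). Proteasome subunit genes (39 genes) had a median of −0.19 with 30 below 0, and Psmd2 and Psmb6 were called lower, both calls lost with the local Z-score (−1.39 and −1.65). Shares of 2 in 74 and 2 in 39 stand beside 1.36% called lower among all genes and 2.44% among genes with a mean log2 intensity of 7 or more. The median mean log2 intensity was 6.74 in the mitochondrial list and 8.97 in the proteasome list. No test of these differences was possible with 1 array per group.

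**Figure D5:**
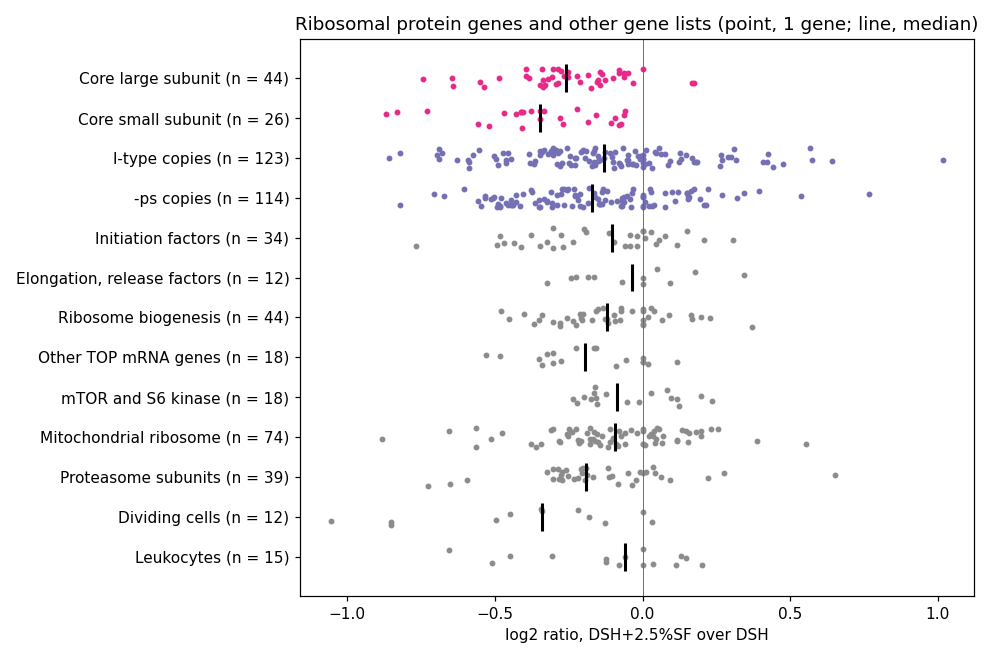
Log2 ratio of DSH+2.5%SF over DSH (horizontal axis) of the genes in each list, 1 point a gene, with the median as a vertical line, for core genes (pink), copies (purple) and other lists (gray). The core small subunit has the lowest median of the lists shown (−0.35), next to the dividing cell markers (−0.34), and the elongation and release factors have the highest (−0.03).

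Markers of dividing cells, which make many ribosomes, had a median close to that of the core small subunit. Of 12 such markers 10 were below 0, with a median log2 ratio of −0.34 and a median mean log2 intensity of 5.52. Mki67 (239 in DSH+2.5%SF, 497 in DSH), Ccnb2 and Top2a were called lower. Of all genes 1.36% were called lower and 1.09% higher, the shares to set beside the calls in these marker lists. The 12 markers summed to 1132 in DSH+2.5%SF and 1741 in DSH, sums set mostly by the brightest probe sets. Of 15 leukocyte markers 8 were below 0, with a median of −0.06 and summed intensities of 1982 in DSH+2.5%SF and 2111 in DSH, and Cd79a was called lower, a call lost with the local Z-score (−1.73). Of 7 erythroid markers 5 were below 0, with a median of −0.14. The sums of these markers, 982 in DSH+2.5%SF and 1137 in DSH, rested mostly on Slc4a1 and Tfrc, which went opposite ways. Slc4a1 had 502 in DSH+2.5%SF and 696 in DSH, and Tfrc had 339 in DSH+2.5%SF and 292 in DSH. The sums therefore say little about erythroid cells. The part of these cells in the ribosomal protein result was not tested. Of 11 markers of the kidney's own segments 4 were below 0, 5 above 0 and 2 equal. Among them Slc12a1, of the thick ascending limb, had the lowest log2 ratio (−0.43), and Calb1, of the distal tubule, was called higher (27005 in DSH+2.5%SF, 10832 in DSH). The 6 markers of other organs measured stayed at 31.8 or less in both pools, and Ins1 was called higher at that dim level (31.8 in DSH+2.5%SF, 19.2 in DSH), a call lost with the local Z-score (1.98).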

How the data were processed

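Total RNA from whole kidney, pooled from 3 rats per group, was hybridized to Clariom D rat arrays, 1 per group. The authors deposited linear intensities, and the submitters' processing notes name RMA and Affymetrix Expression Console 1.4.1. The build behind the probe sets was not given in the sources used here. From the deposited intensities log2 ratios of DSH+2.5%SF over DSH and Z-scores over all 68842 probe sets were computed. The study gives its thresholds and not how its Z-score was computed, and with the one used here they amount to 1.63-fold higher or 1.57-fold lower. Gene symbols came from GEO's platform annotation (23446 probe sets with 1 symbol, 505 with several, 44891 with none used here), and each gene was represented by its brightest probe set. Starts and biotypes came from RefSeq (GRCr8).

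Only 2 arrays were made, which limits the precision, and neither a replicate error nor a p-value or interval can be had. The members and gene lists were chosen with earlier results of these data known. Genes named were every gene that passed, the 4 highest and 4 lowest log2 ratios of each core subunit, the 3 brightest and 3 dimmest core genes, the stalk and 5S proteins and Rpsa, functional paralogs with their parents, the 5 highest and 5 lowest copies, the 3 parents with most copies, ribosomal proteins outside the selection, and in other lists genes that passed and the extremes. Other named genes were chosen after their values were seen. Some genes this rule names are not reported here. The alternatives were a local Z-score (over the 1000 probe sets closest in mean log2 intensity), other ratio criteria, median centring, quantile normalization, a loess trend, filters on dim, bright or equal probe sets, and other choices of probe set. Python 3.11.15, numpy 2.4.6, pandas 2.3.3, statsmodels 0.14.6 and matplotlib 3.10.9 were used.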

Additional observations from a re-analysis of the deposited data

How the results depend on the processing

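The medians kept their sign under every alternative tried for them. The core large subunit median ran from −0.27 to −0.22, the core small subunit median from −0.38 to −0.31, the copies from −0.18 to −0.14 and copy minus parent from 0.10 to 0.16. The counts of calls moved more. With the local Z-score, over the 1000 probe sets closest in brightness, 2 genes were lower (Rps16 and Rps23l1) and 1 higher (Rps12l3), against 0.883% called lower among all genes. With the ratio limits moved to 2 and 0.5, 0 were lower and 1 higher. In the other settings 9 to 17 were lower and 2 or 3 higher. Rps16l1 and Rpl37-ps1 lost their call with quantile normalization and, with Rpl27l3 and Rpl18al1, after a loess trend was subtracted. Rps10 and Rps16 lost their call with a gene's probe sets averaged, and Rps18 and Rps10 with probe sets on their own chromosome, an alternative chosen after the data were seen. No paired analysis was possible because each group had 1 array. Dim copies near background limit what their ratios show.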
